A study of Oscheius tipulae with 48 samples.

Results

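The 150 genes described here are those whose transcripts were highest in the earliest embryos of Oscheius tipulae and dropped most by late cleavage. They were taken from 14558 genes of a table of RPKM values (read counts scaled to gene length and to the size of the library). Values were put on the log2(RPKM + 1) scale and averaged over 9 groups of libraries, namely embryos of 2 to 8 cells, 8 to 64 cells and 64 to 200 cells, L1 replicates 2 and 3, L2 to L4, young and mature adults, males, dauer larvae and post-dauer mature adults. Of the 1803 genes with their highest mean at 2 to 8 cells, 1660 also had at least 10 RPKM in each of the 7 libraries of that group; these are called early genes below. The 150 members are the early genes with the largest drop from 2 to 8 cells to 64 to 200 cells, and the other 1510 early genes serve for comparison. Because those values chose the members, the drop itself is given as a description, with no test.

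RNA-seq followed strain CEW1 through its life cycle in 48 libraries of rRNA-depleted total RNA. Embryos came from bleached, egg-carrying worms and were grown at 25 °C to 2 cells (1 library), 2-4, 4-8, 8-16, 16-32 and 32-64 cells (3 each), 64-128 cells (2), and 100-150 and 150-200 cells (1 each). L1 larvae that had hatched without food (3 libraries) were plated on bacteria at 20 °C to give L2, L3, L4, young adults and mature adults, and dauer larvae from liquid culture, the arrested stress-resistant form, gave post-dauer L3, L4, young adults and mature adults (2 libraries each). Each of the 2 male libraries was made from 200 males picked by hand from the him-1(sy527) mutant, so male sex and this allele go together. Mixed worms (2 libraries) and mixed embryos (1 library) entered no comparison. The labels do not say whether embryos carried inside adults were removed.

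An animal embryo begins with RNA that the mother loaded into the egg. During the maternal-to-zygotic transition part of this RNA is degraded while the embryo's own genome is switched on, and in nematodes such as Caenorhabditis elegans both happen during the first cleavages. In these worms the oocytes are made in the adult germ line, which grows through the larval stages. Oscheius tipulae in addition removes the ends of its chromosomes in early somatic cells, the programmed DNA elimination that the study was built to follow. The file gives genes by ID with no name, so the functions of the members are not described here.

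Several libraries stood apart. The 3124 genes with a median under 0.5 RPKM over all libraries, called silent genes here, reached a median level of 5.32 RPKM in replicate 1 of the post-dauer young adults, 3.59 and 1.55 RPKM in dauer larvae, 2.44 RPKM in replicate 1 of post-dauer L3 and 1.37 RPKM in that of post-dauer L4, against at most 0.54 RPKM in the other 43. Across genes, L1 replicate 1 had an r of 0.879 with 150-200 cell embryos and of only 0.756 and 0.770 with L1 replicates 2 and 3. The RPKM of 16-32 cell replicate 3 summed to 860569, above the 371389 to 674515 of all other libraries, and the median over all genes was 3.97 RPKM in young adult replicate 1 against 6.77 RPKM in replicate 2. Where libraries that stood apart are said below to be left out, 7 are meant, namely these 8 except dauer replicate 2, which was kept. The table gives no read counts; from the steps that 1 read leaves in low values, the depth of 15 libraries was 0.406 (L2 replicate 2) to 1.09 (64-128 cell replicate 1) times that of 2-4 cell replicate 2, and it was not resolved for the other 31 of 46 compared. Nothing in the labels beyond the word biological says that replicates were separate cultures, so the p-values rest on a spread between libraries that may be technical in part.

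In the earliest embryos the members were abundant transcripts. Their median was 178 RPKM at 2 cells, 149.6, 96.9 and 136 RPKM in replicates 1, 2 and 3 at 2-4 cells, and 123, 94.3 and 121 RPKM at 4-8 cells. Together they held 9.28% of all RPKM at 2 cells and 8.56 ± 0.95% (SD, n = 3) at 2-4 cells. At 8-16 cells the median was 82.5, 75.9 and 103.7 RPKM, at 16-32 cells 55.8, 37.2 and 48.1 RPKM, and at 32-64 cells 57.0, 24.9 and 40.7 RPKM. At 64-128 cells it was 15.7 RPKM in replicate 1 and 39.2 RPKM in replicate 3, followed by 29.0 RPKM at 100-150 cells and 42.1 RPKM at 150-200 cells. Their share of all RPKM was then 1.93 ± 0.65% (SD, n = 2), 1.71% and 2.48%. The libraries of 2 to 8 cells lay above the embryo libraries of 16-32 cells and later, and in each of the 4 embryo libraries from 64-128 cells on, 107 to 142 of the members still had 10 RPKM or more. In bulk samples fewer cells that hold a transcript and less of it per cell cannot be told apart, nor, in values relative to the library total, can loss of the members and gain of other transcripts.

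**Figure D1:**
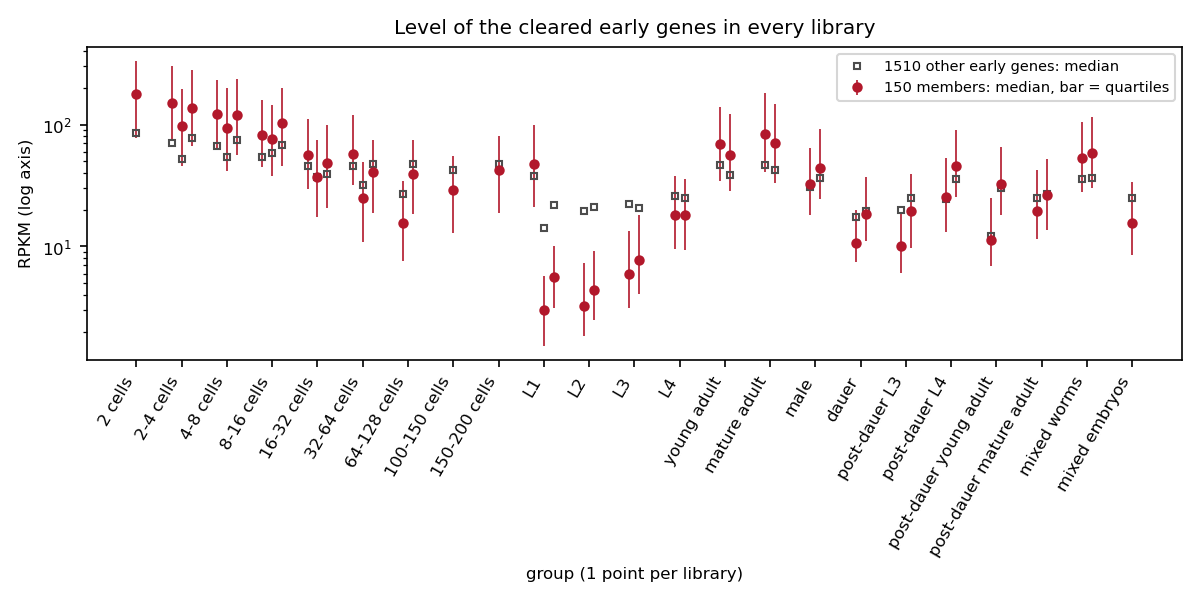
Level of the members in every library, in RPKM on a log axis, by group. Red points are the median of the 150 members with bars from the lower to the upper quartile, and open squares the median of the 1510 other early genes; the red points run from 178 RPKM at 2 cells to 3.04 RPKM in L1 replicate 2 and lie between 56.7 and 84.2 RPKM in young and mature adults.

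The drop that ranked the members ran from 1.84 to 2.47 on the log2 scale, with a median of 2.00, a 3.99-fold lower level at 64 to 200 cells. Its median was 0.71 in the other early genes. Between 2-4 and 64-128 cells, a contrast that the rule used, 148 of the 150 members were called lower, where 7.80% of 9332 genes were; nothing is read from this count. Calls here and below need a limma p, adjusted by Benjamini-Hochberg, under 0.05 and a change of 1 log2 unit or more. The largest drop was that of Oti_g00419, at 69.3 RPKM at 2 cells, 53.5, 21.6 and 79.8 RPKM at 2-4 cells and 87.3, 27.6 and 63.3 RPKM at 4-8 cells, against 3.89 and 14.7 RPKM at 64-128 cells, 5.95 RPKM at 100-150 cells and 14.2 RPKM at 150-200 cells. All 7 early libraries lay above these 4. Oti_g06695 had the next largest drop, with 76.6 RPKM at 2 cells, 12.3 RPKM at 100-150 cells and 15.5 RPKM at 150-200 cells. At the threshold the drop was 1.837 for Oti_g02223, the last member, and 1.835 for Oti_g00609, the first gene left out.

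The timing of the drop was similar in most members. It is described without a test, since the rule chose them for a large drop between both ends of this course. Relative to the mean of 2 to 8 cells, the stage mean of the median member was lower by 0.15 at 4-8 cells, 0.48 at 8-16 cells, 1.40 at 16-32 cells, 1.64 at 32-64 cells and 2.19 at 64-128 cells on the log2 scale. The first stage at which a member's mean was at least 1 log2 unit lower was 8-16 cells for 1 member, 16-32 cells for 125, 32-64 cells for 22 and 64-128 cells for 2. Within libraries of 1 column number the median step from 8-16 to 16-32 cells was -0.58, -0.92 and -1.06 in replicates 1, 2 and 3, against -0.31, -0.06 and -0.15 from 2-4 to 4-8 cells and -0.56, -0.28 and -0.22 from 4-8 to 8-16 cells. The step of -1.06 and the means at 16-32 cells include replicate 3 of that stage, 1 of the libraries that stood apart. In replicate 1 the step of -0.58 was close to the -0.56 before it. The other early genes also had lower values across the 8-16 to 16-32 cell step, at -0.25, -0.62 and -0.82. From 16-32 to 32-64 cells the numbers differed in direction, at 0.10, -0.62 and -0.31. The library titles exchange numbers 2 and 3 at 16-32 cells. Paired by title, replicates 2 and 3 had steps of -0.60 and -1.28 into 16-32 cells, and of -0.99 and -0.01 out of it. Across genes, the deviations of these libraries from their stage mean had an r of 0.487 to 0.534 with 8-16 and 32-64 cell libraries of the same column number and of -0.363 to -0.199 in the title pairing. Replicate 1 had its largest step last, -1.81 from 32-64 to 64-128 cells, where replicate 3 had -0.01. Between the single libraries of 100-150 and 150-200 cells the median step was 0.54, and 149 of 150 members were higher in the later one; the other early genes had a step of 0.16 there.

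**Figure D2:**
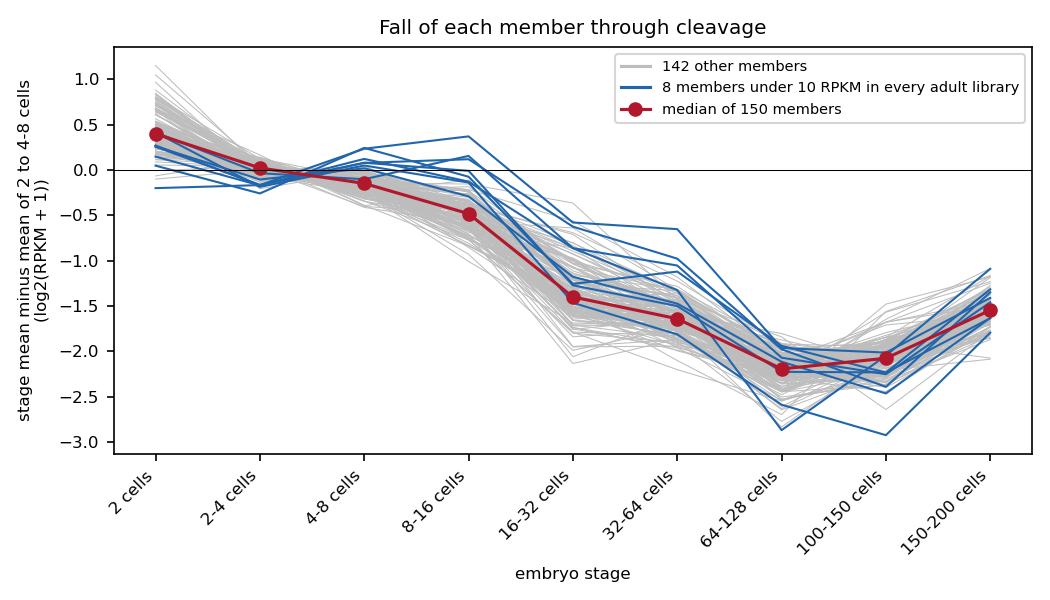
Stage mean of each member minus its mean over 2 to 8 cells, on the log2(RPKM + 1) scale, against embryo stage. Each thin line is 1 member, the blue lines are the 8 members under 10 RPKM in every adult library, and the red line is the median of all 150, which passes from -0.48 at 8-16 cells to -1.40 at 16-32 cells.

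The rule used the mean of 8 to 64 cells and so fixed no direction between the stages inside that window, though a drop that spans these stages makes a lower later value likely for its members. At 32-64 cells all 150 members were lower than at 8-16 cells, by 0.71 to 1.67 on the log2 scale, with a median change of -1.13 against 0.00 for all genes and -0.52 for the other early genes. No member was called, as 0% of the 9332 genes tested were (limma, Benjamini-Hochberg adjusted p under 0.05). At an unadjusted p under 0.05 there were 122 members and 778 genes in all, and 149 members and 2216 genes when replicate number was a block, a fit that also called 0. All 150 members were lower at 32-64 cells in each of the 3 same-numbered pairs, which was so for 32.5% of all genes tested and for 88.6% of the other early genes. For 115 members the 3 libraries of each stage did not overlap, against 12.1% of all genes and 39.1% of the other early genes. The median change was -0.81 without 32-64 cell replicate 2 and -1.47 without 32-64 cell replicate 1.

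Inside the earliest window, from 2-4 to 4-8 cells, the differences were small. The median change of the members was -0.18 against 0.14 for all genes and -0.02 for the other early genes; 130 members were lower and 20 higher. No member and 0% of the 9332 genes were called in limma, and at an unadjusted p under 0.05 there were 0 members and 186 genes, or 0 members and 689 genes with the replicate block, which also called 0. In all 3 same-numbered pairs 71 members were lower, against 8.45% of all genes and 17.2% of the other early genes. The median was -0.03 if replicate 1 of 2-4 cells or replicate 2 of 4-8 cells was left out, -0.38 if replicate 2 of 2-4 cells was, and -0.28 if replicate 1 of 4-8 cells was.

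**Figure D3:**
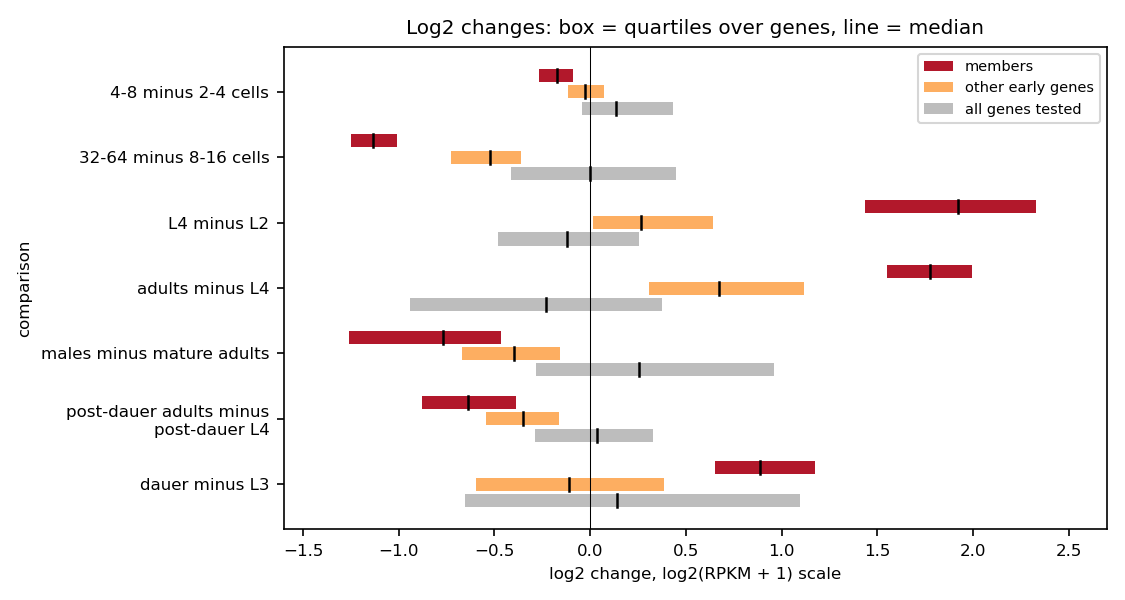
Log2 changes in 7 comparisons on the log2(RPKM + 1) scale. Boxes run from the lower to the upper quartile over genes and lines mark the median for the 150 members (red), the 1510 other early genes (orange) and all genes tested (grey); the median of the members was 1.92 in L4 against L2 and 1.78 in adults against L4, and -0.64 in post-dauer adults against post-dauer L4.

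Most members were also found in adults. Whether embryos carried inside these adults were removed is not stated. RNA of the adults and RNA of such embryos therefore cannot be told apart. In all 4 libraries of young and mature adults 140 of the 150 had 10 RPKM or more. Their median was 69.5 and 56.7 RPKM in the young adults and 84.2 and 70.1 RPKM in the mature adults, and the median member was 0.76 lower there than at 2 to 8 cells on the log2 scale. By the rule no member could be higher. The smallest difference of a member was 0.02 and the largest 5.61. In the other early genes the median difference was 0.60, and 3.31% of them were under 10 RPKM in all 4 adult libraries.

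A group of 8 members was nearly undetected in adults, and whether the mother supplied the transcripts of these members was not tested. Each of them was under 10 RPKM in all 4 adult libraries, with 2.60 RPKM as the highest single value, while the lowest value at 2 to 8 cells was 16.4 RPKM and the highest 154 RPKM. No member had an adult range between these 8 and the rest except 2, whose adult values ran from 7.97 to 12.4 RPKM. Oti_g00419, the member with the largest drop, is 1 of the 8: it was listed at 0 in both young adults and in mature adult replicate 2, at 0.36 RPKM in mature adult replicate 1, and at 0 and 0.63 RPKM in males. Oti_g02223 is another, at 27.2 RPKM at 2 cells and 0.07 and 0.29 RPKM in the mature adults. In males the 8 had a median of 1.47 and 0.84 RPKM, with single values from 0 to 25.0 RPKM. Among the other early genes 50 of 1510, or 3.31%, were under 10 RPKM in every adult library, against 5.33% of the members.

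These 8 also differed in timing, which is described here without a test because they were chosen after their values were seen. From 2-4 to 4-8 cells 7 of the 8 members had a higher mean, with a median change of 0.24, against 13 of the other 142. At 8-16 cells 7 of the 8 had a higher mean than at 2-4 cells, and none of the other 142 did. At both stages 6 of the 8 were higher. Their median level was 62.3 RPKM in the single library of 2 cells, above all 3 libraries of 8-16 cells. It was 50.9, 21.3 and 73.3 RPKM in replicates 1, 2 and 3 at 2-4 cells, 87.9, 26.1 and 59.1 RPKM at 4-8 cells, and 59.0, 41.5 and 43.5 RPKM at 8-16 cells. Replicates 1 and 2 were thus higher at both later stages and replicate 3 lower. By 64-128 cells the level was 5.53 and 17.1 RPKM. In L4 larvae it was 0.25 and 0.27 RPKM, and in L1 replicate 1, the library that resembled embryos, 14.0 RPKM.

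**Figure D4:**
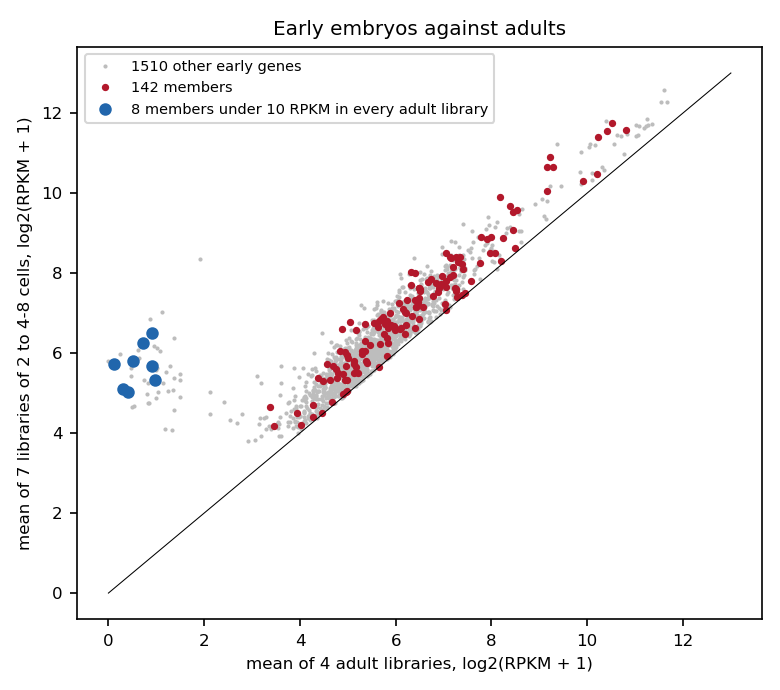
Mean of the 7 libraries of 2 to 8 cells (vertical) against the mean of the 4 libraries of young and mature adults (horizontal), both log2(RPKM + 1), for 1510 other early genes (grey), 142 members (red) and the 8 members under 10 RPKM in every adult library (blue). The line marks equal values, above which the rule places every gene; the blue points lie apart at the left, with no adult value above 2.60 RPKM.

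Larvae held little of the members until L4. The median was 3.04 and 5.63 RPKM in L1 replicates 2 and 3, 22.3-fold below 2 to 8 cells for the median member, and 47.3 RPKM in L1 replicate 1. In L2 it was 3.28 and 4.44 RPKM, in L3 5.95 and 7.73 RPKM and in L4 18.0 and 18.1 RPKM. The other early genes stayed between 19.4 and 26.0 RPKM in these 6 libraries. From L2 to L4 the median change was 1.92 against -0.12 for all genes and 0.27 for the other early genes, and 144 members were higher. In limma with Benjamini-Hochberg adjustment no member was called, and 0.0415% of 14446 genes were called higher and 0.0138% lower; at an unadjusted p under 0.05 there were 107 members and 801 genes. The 2 libraries of each stage did not overlap for 142 members that were higher, against 24.6% of all genes and 53.2% of the other early genes. They did not overlap for 4 members that were lower, against 36.8% of all genes and 11.3% of the other early genes. Without the libraries that stood apart, none of which is an L2 or L4 library, 104 members were called higher, against 3.45% of all genes. The L2 and L4 values were the same in that fit. What differed was the spread shared by all groups, with libraries seen to deviate taken out, and the set of genes tested.

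From L4 to adult the members were higher again. The median change was 1.78 on the log2 scale against -0.23 for all genes and 0.67 for the other early genes, with 148 of 150 members higher. In limma 26 members were called higher and 0 lower at a Benjamini-Hochberg adjusted p under 0.05, where 2.21% of 14446 genes were called higher and 7.72% lower. For 141 members all 4 adult libraries lay above both L4 libraries, against 18.0% of all genes and 72.2% of the other early genes. Oti_g05387 was at 9.81 and 6.40 RPKM in L4, 80.0 and 67.0 RPKM in young adults and 117 and 102 RPKM in mature adults, so that the groups lay far apart. Its log2 change was 3.34 ± 0.76 (SE, limma Benjamini-Hochberg adjusted p = 0.0133). Oti_g05935 was at 20.4 and 23.2 RPKM in L4, 473 and 144 RPKM in young adults and 613 and 120.3 RPKM in mature adults, with adults that differed several-fold within each group. Its log2 change was 3.56 ± 1.03 (SE, limma Benjamini-Hochberg adjusted p = 0.0371). The count of 26 rests on few libraries: it was 0 without either L4 replicate or without mature adult replicate 1, 1 if young adult replicate 1 was left out, and 17 if mature adult replicate 2 was, and it was 0 after quantile normalization. Oti_g05387 lost its call without either L4 replicate or mature adult replicate 1, and Oti_g05935 without any of these or young adult replicate 1. Without the libraries that stood apart, which left 1 young adult library, 134 members were called higher, against 10.1% of all genes.

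Males, which make sperm and no oocytes, had the members at intermediate levels. The median was 32.3 and 43.9 RPKM in the him-1(sy527) males, below the 84.2 and 70.1 RPKM of mature adults and above the 18.0 and 18.1 RPKM of L4. The median change from mature adults to males was -0.77, against 0.26 for all genes and -0.40 for the other early genes. Limma called 1 member lower and 1 higher at a Benjamini-Hochberg adjusted p under 0.05, where 0.671% of 14446 genes were called lower and 8.12% higher. The 2 libraries of each group did not overlap for 122 members that were lower in males, against 19.4% of all genes and 63.2% of the other early genes. They did not overlap for 5 members that were higher, against 39.2% of all genes and 4.70% of the other early genes. Oti_g05387 was at 6.70 and 15.3 RPKM in males against 117 and 102 RPKM in mature adults, a log2 difference of -3.30 ± 0.88 (SE, limma Benjamini-Hochberg adjusted p = 0.0210). Oti_g10282, 1 of the 8 members nearly undetected in adults, was at 25.0 and 10.9 RPKM in males and at 0.71 and 1.00 RPKM in mature adults, a log2 difference of 3.25 ± 0.83 (SE, limma Benjamini-Hochberg adjusted p = 0.0158). The count of 2 was 0 without either mature adult replicate or male replicate 1, and 1 without male replicate 2, where Oti_g10282 kept its call and Oti_g05387 lost it. The shares of all genes called in these fits are not given, so these counts say nothing particular about the members. After quantile normalization the count was 0, where 755 of 14446 genes were called higher and 166 lower. Without the libraries that stood apart 36 members were called lower and 3 higher, against 3.62% and 17.7% of all genes. None of those libraries is a male or mature adult library. The values compared were thus the same, and the shared spread and the set of genes tested differed.

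Dauer larvae were set against L3, the matching stage of direct growth, and no member passed the test. In dauer larvae the median was 10.6 and 18.4 RPKM, against 5.95 and 7.73 RPKM in L3, a median change of 0.89 against 0.14 for all genes and -0.11 for the other early genes. At a Benjamini-Hochberg adjusted p under 0.05 limma called 0 members, where 1.02% of 14446 genes were called higher and 1.97% lower; at an unadjusted p under 0.05 there were 10 members and 4022 genes. The dauer libraries lay above both L3 libraries for 107 members, against 37.5% of all genes and 27.2% of the other early genes. They lay below them for 2 members, against 29.9% of all genes and 40.1% of the other early genes. In both dauer libraries the silent genes were raised, with medians of 3.59 and 1.55 RPKM. With each library's silent-gene median subtracted, the median change of the members was 0.57 and that of all genes -0.40. The median was 0.56 without dauer replicate 2 and 1.27 without dauer replicate 1. With the 7 libraries left out, dauer replicate 2 alone stood for dauer, itself with a silent-gene median of 1.55 RPKM and assumed to vary like the other groups, and 54 members were called higher, against 9.18% of all genes.

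After dauer the median member was lower in adults than in L4, where in direct growth it was higher. Post-dauer L3 had medians of 10.03 and 19.4 RPKM and post-dauer L4 of 25.3 and 46.0 RPKM. In the young adults that followed it was 11.2 and 32.5 RPKM, and in the mature adults 19.5 and 26.4 RPKM. Both post-dauer L4 libraries were above both direct L4 libraries, and all 4 post-dauer adult libraries were below all 4 direct adult libraries. The median change from post-dauer L4 to post-dauer adults was -0.64, against 0.03 for all genes and -0.35 for the other early genes, and 142 members were lower. Limma called 0 members and 0% of 14446 genes at a Benjamini-Hochberg adjusted p under 0.05, with 0 members and 145 genes at an unadjusted p under 0.05. For 13 members the adults lay below both L4 libraries, against 2.32% of all genes and 6.23% of the other early genes. The median was -1.09 and -0.20 without post-dauer L4 replicates 1 and 2, and -0.35 without post-dauer young adult replicate 1, the library with a silent-gene median of 5.32 RPKM.

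The difference between the post-dauer and the direct change from L4 to adult was tested as 1 contrast. Its median over the members was -2.46, against 0.36 for all genes and -1.002 for the other early genes. On the negative side were 148 members and 1442 of the 1510 other early genes. Limma called 2 members and 3 of the other early genes lower at a Benjamini-Hochberg adjusted p under 0.05, where 0.194% of 14446 genes were called lower and 1.51% higher, and at an unadjusted p under 0.05 there were 118 members and 2826 genes. Oti_g05387, whose direct values are given above, was at 7.37 and 33.1 RPKM in post-dauer L4, 4.19 and 32.5 RPKM in post-dauer young adults and 4.18 and 5.66 RPKM in post-dauer mature adults. The difference was -4.28 ± 1.08 (SE, limma Benjamini-Hochberg adjusted p = 0.0495). Oti_g04973 was at 4.49 and 2.96 RPKM in L4, 30.1 and 17.5 RPKM in young adults and 27.4 and 26.5 RPKM in mature adults. After dauer it was at 9.20 and 13.8 RPKM in L4, 6.36 and 9.28 RPKM in young adults and 1.68 and 5.96 RPKM in mature adults. The post-dauer young adults thus overlapped post-dauer L4. The difference was -3.48 ± 0.85 (SE, limma Benjamini-Hochberg adjusted p = 0.0458). The count of 2 was 0 without any 1 of the L4 or post-dauer L4 libraries, or without replicate 1 of young, mature, post-dauer young or post-dauer mature adults, and both calls were lost after quantile normalization. It was 3 without replicate 2 of young or of post-dauer young adults. The shares of all genes called with 1 library left out are not given, so these counts say nothing particular about the members. After quantile normalization 25 of 14446 genes were called higher and 12 lower. Without the libraries that stood apart, which left 1 library each of young adults, post-dauer L4 and post-dauer young adults assumed to vary like the others, 121 members were called lower, against 7.61% of all genes.

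**Figure D5:**
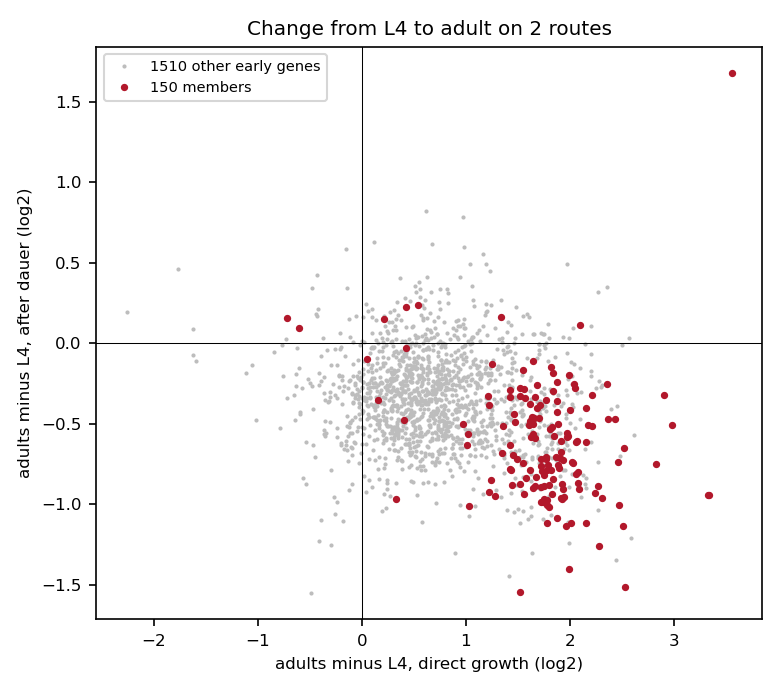
Log2 change from L4 to adult in directly grown worms (horizontal) and after dauer (vertical) for the 150 members (red) and the 1510 other early genes (grey), on the log2(RPKM + 1) scale. Most members lie to the right of 0 and below 0, with medians of 1.78 and -0.64.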

How the data were processed

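The authors deposited 1 table of RPKM values for 14558 gene IDs and 48 libraries. Its values are fractional, with a different total in each library, and the unit is read from them. Tools named, per the submitters' processing notes, were STAR 2.7.10, Bowtie2 2.4.2, HTSeq 2.0.2 and StringTie 2.2.0; which build and annotation they used is not given in the sources used here. Groups follow the library descriptions; L2, L3 and L4 columns carry other replicate digits than the labels, so their digit is only a name.

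The members and lists were chosen with earlier results of these data known. Tests used limma 3.58.1 (R 4.3.3, trend and robust moderation) on log2(RPKM + 1), in 1 fit of 17 embryo libraries (9332 genes) and 1 of 25 larval, dauer and adult libraries (14446 genes), on genes that reached 1 RPKM in 2 or more libraries. This scale understates the change of low genes. All 150 members passed both filters, in embryos by the rule itself. Named genes are those with the 2 largest drops, those at the threshold, and in each comparison the called members of largest change (at most 2 each way) whose groups do not overlap and whose higher group averages at least 10 RPKM. For the difference of 2 changes no overlap was asked. Gene lists by name could not be matched to these IDs. Same-numbered embryo libraries deviated together (r = 0.539 to 0.837 over 6 pairs across genes), so the number pairs them. Alternatives were quantile normalization, a pseudocount of 0.1, no filter, only the groups compared, the replicate block and 1 library left out in turn. Added after seeing the data were a fit that dropped 7 libraries standing apart (replicate 1 of L1, young adult, dauer, post-dauer L3, L4 and young adult, and 16-32 cell replicate 3), subtraction of the silent-gene median and the block with the replicate numbers of the titles, which differ from the column numbers used at 2, 16-32 and from 64-128 cells on. The functions were tested on simulated data. No pair of 1128 library pairs shared over 0.468% of its values above 1 RPKM. Reads shared by overlapping or near-identical genes cannot be told apart.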

Additional observations from a re-analysis of the deposited data

Results flagged for a closer look

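The change from L4 to adult differed between post-dauer and direct growth for 2 members by a test of the difference itself. It was -4.28 for Oti_g05387 and -3.48 for Oti_g04973 on the log2 scale, called with limma at a Benjamini-Hochberg adjusted p of 0.0495 and 0.0458, and over the alternatives that p ran from 0.00703 to 0.285 and from 0.0109 to 0.255. Leaving out 1 of the 12 libraries ended the call of each gene in 9 of 12 cases.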

How the results depend on the processing

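The median change of the members kept its direction in all 8 comparisons under every alternative run. In 51 results with another setting it moved by less than the largest SD between libraries within 1 compared group. That SD, on the log2 scale, ran from 0.21 for adults against L4 to 1.03 for the 2 post-dauer comparisons, where the margin is wide. The 1 result that moved by more was L4 against L2, at 2.19 with a pseudocount of 0.1. Agreement under several settings was fixed beforehand and shows no stability. No filter, only the groups compared and the replicate block do not alter a gene's own change. Nor does dropping libraries outside the groups compared. For 32-64 against 8-16 cells the median was -1.13 under each of these. With 1 library left out the median change ran from -1.47 to -0.81 for 32-64 against 8-16 cells, -0.38 to -0.03 for 4-8 against 2-4 cells, 1.71 to 1.84 for adults against L4, -1.005 to -0.53 for males, -1.09 to -0.20 for post-dauer adults, 0.56 to 1.27 for dauer, 1.76 to 2.05 for L4 against L2 and -2.87 to -1.93 for the difference of post-dauer and direct growth. Counts of called members depended on the setting. The shares of all genes called are not given here for a pseudocount of 0.1 or for only the groups compared. They are also not given for the silent level subtracted or for 1 library left out. The counts under these settings therefore say nothing particular about the members. For adults against L4 the count was 0 after quantile normalization, 9 with a pseudocount of 0.1, 126 with only the groups compared, 134 when libraries that stood apart were dropped and 0 with the silent level subtracted, and 0 to 23 with 1 library left out. For males it was 0, 0, 45, 39 and 1 in the same order, and 0 to 1. For dauer against L3 it was 1 after quantile normalization, 30 with only the groups compared and 54 without the libraries that stood apart. For L4 against L2 it was 129 and 104 under the latter 2. For the difference of post-dauer and direct growth it was 0 after quantile normalization, with a pseudocount of 0.1, with only the groups compared and with the silent level subtracted, 1 with no filter, 121 without the libraries that stood apart and 0 to 3 with 1 library left out. With 1 library left out it was 0 in every case for the other 5 comparisons that called 0. The cause was not tested. The replicate block, which pairs the embryo libraries, left the count at 0 in both embryo comparisons, with the column numbers and with those of the titles (131 and 0 members, 1250 and 441 genes at an unadjusted limma p under 0.05). In worms the labels give only a shared number. The r of same-numbered deviations was -0.0288 for males and mature adults, and 0.5 and 0.267 for post-dauer young and mature adults with post-dauer L4. The 0.5 is close to the lowest embryo value, 0.539, so whether the number pairs post-dauer libraries was not settled. With the block the count was 2 for males and 0 for post-dauer adults. No paired analysis was possible for comparisons with L2, L3 or L4 because their columns carry no number of the labels. Quantile normalization moved the median of all genes from -0.23 to 0.01 for adults against L4, from 0.26 to -0.11 for males, from 0.14 to -0.02 for 4-8 against 2-4 cells and from 0.36 to 0.05 for the difference of post-dauer and direct growth, and the split of all called genes, higher against lower, was 146 to 234 in place of 319 to 1115 for adults, 755 to 166 in place of 1173 to 97 for males and 25 to 12 in place of 218 to 28 for the difference. Precision is limited by groups of 1 to 3 libraries, and read depth is unknown for most.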

Other observations

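In libraries outside every comparison, the members had a median of 53.4 and 58.6 RPKM in mixed worms, between direct L4 and mature adults, and 15.7 RPKM in mixed embryos, close to the lowest of the staged embryo libraries, 64-128 cell replicate 1. The other early genes were at 35.5 and 36.3 RPKM in mixed worms and 25.0 RPKM in mixed embryos. The 8 members nearly undetected in adults had a median of 1.76 and 1.16 RPKM in mixed worms and 4.37 RPKM in mixed embryos.

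The early genes were unevenly spread over the gene ID numbers. Of the 2559 genes numbered 12000 and above, 27 were early genes, 1.06%, and 0 were members, whereas 11.4% of all genes were early genes. Among IDs numbered 5000 to 5999, 248 of 1000 genes were early and 29 were members. Members were 11.7% of the early genes there and 9.04% of all early genes. The sources used here do not say what the order of the IDs stands for, and this pattern was noticed after the values were seen and was not tested.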
